A study of Mus musculus with 6 samples.

Results

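Solute carrier genes encode membrane proteins that move nutrients, ions, vitamins and metabolites across the cell surface and the membranes of organelles. In RAW264.7, a mouse macrophage cell line, 174 genes with a solute carrier symbol, 2 of them not carriers, were measured above a low level. They were taken as every row whose symbol has the form Slc, a family number, a letter and a member number, apart from the iron carriers Slc40a1, Slc11a1 and Slc11a2, whose FPKM averaged 1 or more across the 6 libraries. FPKM is the number of fragments scaled by transcript length and by library size. The symbol pattern matched 375 rows, of which 372 were left without the iron carriers. A further 198 of these lay under the limit, 23 of them at 0 in every library, so that the 174 members were part of the 10229 genes tested.

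The nanoparticle group held 3 libraries from cells given CM-PEG-PLGA@DOX/R848 particles in an amount carrying 2 µg/mL of doxorubicin (DOX), and the PBS group 3 libraries from cells given phosphate buffered saline, each for 24 h. Doxorubicin poisons topoisomerase II, R848 (resiquimod) activates endosomal Toll-like receptors such as Tlr7, and PLGA and PEG are the polymers of the carrier particle, while CM is not spelled out in the labels. All 6 libraries came from the same established line, and neither group used here was given empty particles, free doxorubicin or free R848, so the parts of the particle cannot be told apart. The labels do not say that replicates were separate cultures, so the p-values rest on a spread among samples that may be only technical.

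As background, solute carriers are grouped into families by sequence, and members of a family often share a kind of substrate. Some work at the plasma membrane, where they take up amino acids, glucose, nucleosides and metal ions or release lactate. Others sit in the lysosome, the Golgi apparatus or the inner mitochondrial membrane, and in macrophages the lysosomal peptide and histidine carriers are tied to signalling from endosomal Toll-like receptors.

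Beside the carriers, the libraries of the groups differed as a whole. Nanoparticle libraries listed 15723 to 15989 genes above 0 FPKM and PBS libraries 12678 to 12872, and the first principal component of the tested genes, which separated the groups, held 93.9% of the variance. Of 10 macrophage markers, 9 were tested, of which 2 were higher, 6 lower and 1 not called. Those called made up 88.9%, beside 77.2% of all genes tested. Higher were 22.2% and lower 66.7%, beside 42.7% and 34.5% of all genes. The 10 markers summed to 1463 to 1553 FPKM in nanoparticle libraries and 3397 to 3536 FPKM in PBS libraries. Adgre1 averaged 12.4 ± 1.16 FPKM in nanoparticle and 1.77 ± 0.177 FPKM in PBS libraries, and Csf1r, the receptor for the macrophage growth factor, averaged 49.1 ± 1.61 FPKM in nanoparticle and 296 ± 7.93 FPKM in PBS libraries. Of 6 T cell markers, Cd3g and Cd8a were at 0 in every library, and the list summed to 8.79 to 11.4 FPKM in nanoparticle and 2.26 to 2.92 FPKM in PBS libraries, nearly all of it Lck. Summed markers of B cells reached 0.613 to 0.697 FPKM in nanoparticle and 0.0805 to 0.133 FPKM in PBS libraries, and those of endothelial cells 1.21 to 1.41 FPKM in nanoparticle and 0.237 to 0.435 FPKM in PBS libraries. Epithelial markers summed to 0.192 to 0.376 FPKM in nanoparticle libraries and to 0 in all PBS libraries, and fibroblast markers to 0.287 to 0.544 FPKM in nanoparticle and 0 to 0.351 FPKM in PBS libraries. These shifts ran alongside every carrier result given here, and their part in them was not tested. In bulk RNA, fewer cells of a type and less RNA per cell cannot be told apart.

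As a set, the carriers summed to similar levels in both groups while many single members differed. The 174 members summed to 4727 ± 119 FPKM in nanoparticle libraries and 4683 ± 52.5 FPKM in PBS libraries (SD, n = 3 each), a difference within the spread, and took 1.02% to 1.04% of the FPKM in nanoparticle and 1.00% to 1.03% in PBS libraries. In limma's test on log2(FPKM + 1), with Benjamini-Hochberg adjustment over all genes tested and a threshold of 0.05, 79 members were higher, 58 were lower and 37 were not called. The called members made up 78.7% of the members, beside 77.2% of all genes tested. Those higher made up 45.4%, beside 42.7% of all genes, and those lower made up 33.3%, beside 34.5% of all genes. The shares of members called in either direction therefore lay near the background. The groups did not overlap for 143 of the 174 members, beside 8062 of the 10229 genes tested, or 78.8%.

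A change of at least 1 on the log2 scale was found for 27 members that were higher, beside 11.4% of all genes, and for 13 that were lower, beside 6.29% of all genes. Together these were 23.0% of the members and 17.7% of all genes tested. Slc18a1, Slc4a11, Slc46a3, Slc49a4, Slc2a4 and Slc28a2 among the higher passed the limit on levels only through the group in which they were high. So did Slc16a12, Slc41a3 and Slc16a7 among the lower. No share without such genes was computed, for the members or for all genes, so the difference is not read as a trait of carriers. The median log2 fold change was 0.11 over the members and 0.08 over all genes, and the median size of change without its sign was 0.50 over the members and 0.46 over all genes. Since log2(FPKM + 1) adds 1 to each value, the fold change understates the difference of low genes. Scaling each library to its upper quartile lowered the median of all genes by 0.11, and the members called were then 72 higher and 68 lower.

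The limit of 1 FPKM bears on these counts. In 7 members the PBS mean was under 1 FPKM and in 3 the nanoparticle mean, so these 10 entered through the group in which they were high and had to differ. The remaining 164 members, with both means at 1 FPKM or more, held 72 that were higher and 55 that were lower. No share over all genes under that limit on both means was computed. Just inside the limit were Slc39a4, with a mean of 1.14 FPKM over the 6 libraries, Slc2a4 with 1.15 and Slc16a7 with 1.42. Just outside were Slc52a3 with 0.827, Slc49a3 with 0.826 and Slc22a15 with 0.766. Of the 198 genes under the limit, 128 stayed at or under 0.1 FPKM in every library, 5 had a nanoparticle mean of at least 1 FPKM and 1 had such a PBS mean.

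The levels of the members spread widely. Their mean over all 6 libraries had a median of 13.2 FPKM, with quartiles at 6.01 and 27.5 FPKM and a highest value of 594 FPKM. In both groups the mitochondrial ADP/ATP carrier Slc25a5 had the highest mean and the phosphate carrier Slc25a3 the next. Below them the orders differed. Slc3a2, the heavy chain that brings several amino acid carriers to the surface, ranked 3 in nanoparticle and 8 in PBS libraries, and the glutamine carrier Slc1a5 ranked 10 in nanoparticle and 3 in PBS libraries. Slc15a3 ranked 4 in nanoparticle and 57 in PBS libraries.

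**Figure D1:**
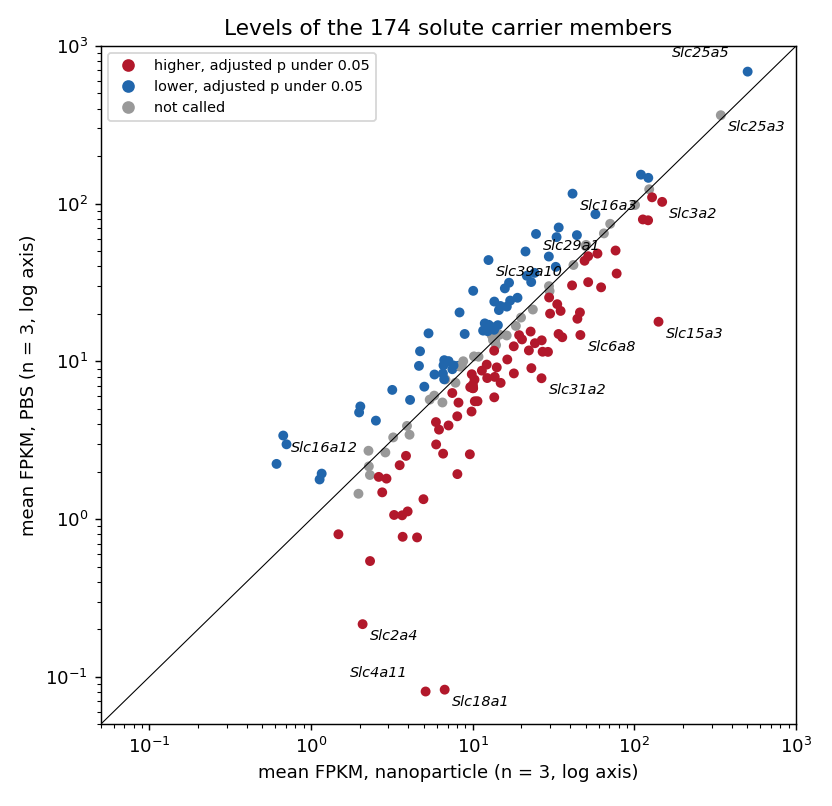
Each point is 1 of the 174 members, with its mean FPKM over 3 nanoparticle libraries on the horizontal log axis and over 3 PBS libraries on the vertical log axis, coloured by limma call. Points under the diagonal are higher with nanoparticles; Slc18a1 and Slc4a11 sit lowest, at PBS means of 0.0829 and 0.0807 FPKM.

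Each substrate class with more than 10 members held carriers called in both directions. Metal carriers had 13 of 21 members higher and 7 lower, and monocarboxylate carriers had 1 of 7 higher and 6 lower. Amino acid carriers had 11 of 24 higher and 6 lower, nucleotide sugar carriers 11 of 20 higher and 5 lower, and mitochondrial carriers 13 of 36 higher and 14 lower. The carriers of small inorganic ions had 8 of 18 higher and 3 lower, those of vitamins, choline, heme and acetyl-CoA 3 of 12 higher and 6 lower, and those of sugars 6 of 13 higher and 5 lower. Over all genes tested, 42.7% were higher and 34.5% lower. Against these shares, 45.8% of the amino acid carriers were higher and 25% lower, 36.1% of the mitochondrial carriers were higher and 38.9% lower, and 61.9% of the metal carriers were higher and 33.3% lower. Classes were assigned by hand from textbook substrates, many of them by family, so that single members can carry another substrate. No test between classes was run.

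**Figure D2:**
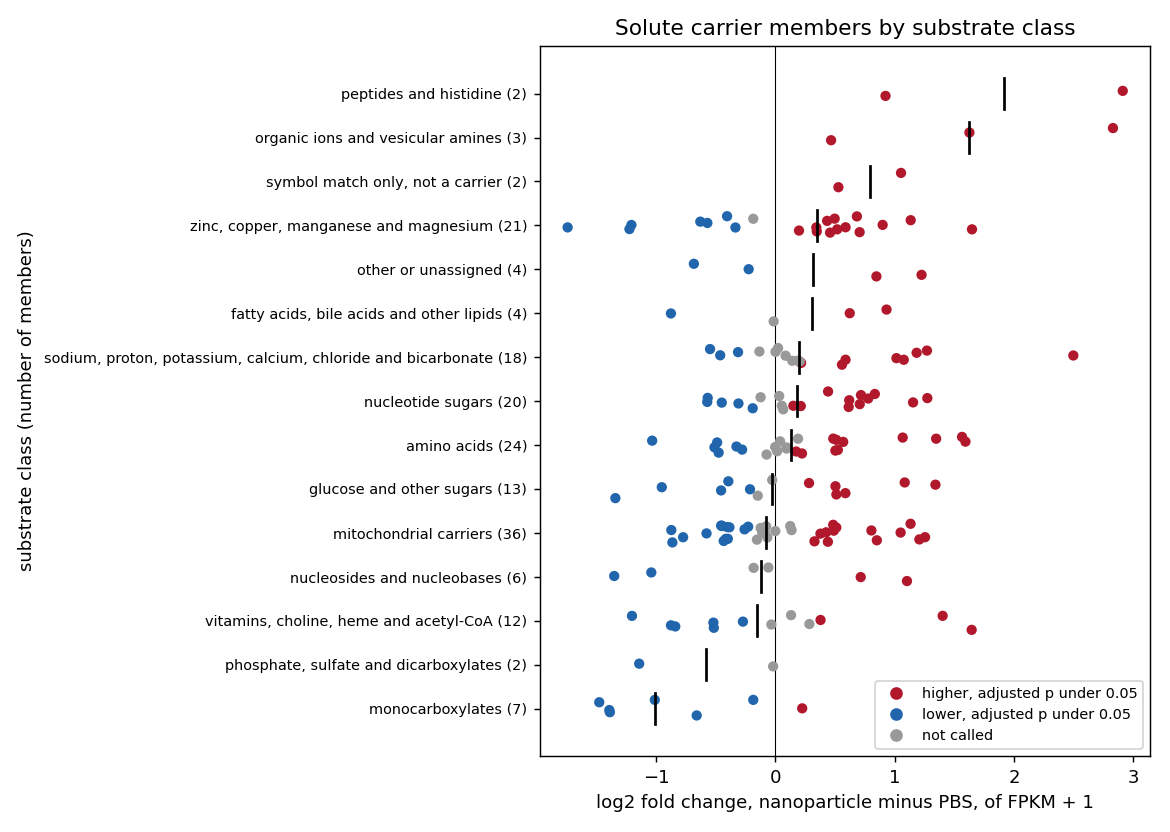
Each point is the log2 fold change of 1 member, nanoparticle minus PBS on log2(FPKM + 1), placed by substrate class and coloured by limma call, with a short vertical bar at the class median. The monocarboxylate class has its median at -1.01 and the metal class at 0.35, beside 0.08 over all genes tested.

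The carrier with the largest change upward was Slc15a3 (ENSMUSG00000024737, chr19:10839727-10859362, + strand), which moves histidine and small peptides out of lysosomes. It was measured at 149.7, 139 and 134 FPKM in the nanoparticle libraries, against 18.5, 17.995 and 17.0 FPKM in the PBS libraries. Every nanoparticle library lay far above every PBS library, with a ratio of means of 7.90 (log2 fold change 2.91 ± 0.06 (SE), adjusted p = 2.5e-10). Its exons share 1541 bases, 28.1% of its exonic length, with Tmem132a on the other strand, whose mean was 6.16 FPKM and log2 fold change 1.69. No source used here says whether strand was used in counting. Its relative Slc15a4, a peptide and histidine carrier of endosomes and lysosomes that is needed for signalling through Tlr7 and Tlr9, was measured at 27.8, 26.9 and 25.4 FPKM in the nanoparticle libraries, against 13.9, 13.4 and 13.5 FPKM in the PBS libraries. The groups did not overlap and the ratio of means was 1.96 (log2 fold change 0.92 ± 0.06 (SE), adjusted p = 4.1e-07). Tasl, the adaptor that binds Slc15a4, averaged 10.2 ± 0.726 FPKM in nanoparticle and 5.34 ± 0.0156 FPKM in PBS libraries (log2 fold change 0.82, adjusted p = 3.6e-06). Of 8 carriers listed for links to nucleic acid sensing, these 2 among them, 6 were tested, with 3 higher, 1 lower and 2 not called, so that 66.7% were called, beside 77.2% of all genes.

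Carriers placed in the lysosomal membrane were called higher in 64.7% and lower in 11.8% of those tested, beside 42.7% and 34.5% of all genes, while the share called in either direction, 76.5%, was near the 77.2% of all genes. Of 19 listed, 17 were tested, and 11 were higher, 2 lower and 4 not called, with a median log2 fold change of 0.51 beside 0.08 over all genes. Of the 11 higher, Slc46a3 and Slc49a4 passed the limit on levels through their nanoparticle values, and no share without them was computed. The list left out Slc2a6 and Slc31a2, which were both higher and for which lysosomal roles are given below. The 19 summed to 297 to 319 FPKM in nanoparticle libraries and 135 to 136 FPKM in PBS libraries. Without Slc15a3 it was 163 to 169 FPKM in nanoparticle libraries and 116 to 119 FPKM in PBS libraries. Slc66a1, an exporter of cationic amino acids from lysosomes, was measured at 10.6, 9.35 and 8.80 FPKM in the nanoparticle libraries, against 2.70, 2.71 and 2.31 FPKM in the PBS libraries. All nanoparticle values lay above all PBS values (log2 fold change 1.57 ± 0.09 (SE), adjusted p = 1.7e-07). The 2 lysosomal carriers that were lower were the heme carrier Slc48a1 (log2 fold change -0.52, adjusted p = 8.4e-05) and Slc12a9 (-0.31, adjusted p = 0.0062).

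Slc46a3 and Slc49a4, both lysosomal, were low in PBS libraries. Slc46a3 (ENSMUSG00000029650, chr5:147878437-147894815, - strand), which is known in human cells to release catabolites of antibody-drug conjugates from lysosomes, was measured at 4.39, 4.03 and 5.16 FPKM in the nanoparticle libraries, against 0.736, 0.960 and 0.599 FPKM in the PBS libraries. Slc49a4 (ENSMUSG00000022848, chr16:35694062-35769356, - strand), known in human cells as a lysosomal exporter of pyridoxine, was measured at 3.58, 3.88 and 3.59 FPKM in the nanoparticle libraries, against 0.755, 0.852 and 0.709 FPKM in the PBS libraries. Both sets of nanoparticle libraries stood clear of the PBS libraries, at log2 fold changes of 1.65 ± 0.11 (SE, adjusted p = 4.4e-07) and 1.40 ± 0.08 (SE, adjusted p = 1.8e-07). Both passed the limit on levels through their nanoparticle values.

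Their promoters are shown because both genes were higher and lysosomal and their windows held a motif that was searched for. The window of Slc66a1, also higher and lysosomal, held none and is not shown. The windows run from 250 bases before to 50 bases after the RefSeq start on build GRCm38.p6, 5′ to 3′ on the gene's strand, which is the minus strand for both, at chr5:147894766-147895065 for Slc46a3 and chr16:35769321-35769620 for Slc49a4. Capitals mark matches, on either strand, to 3 motifs: TGACNNNGC, the core of the antioxidant response element; TGATGNAA, a C/EBP-ATF type amino acid response element; and CACGTG, the E-box found in many lysosomal gene promoters.
Slc46a3: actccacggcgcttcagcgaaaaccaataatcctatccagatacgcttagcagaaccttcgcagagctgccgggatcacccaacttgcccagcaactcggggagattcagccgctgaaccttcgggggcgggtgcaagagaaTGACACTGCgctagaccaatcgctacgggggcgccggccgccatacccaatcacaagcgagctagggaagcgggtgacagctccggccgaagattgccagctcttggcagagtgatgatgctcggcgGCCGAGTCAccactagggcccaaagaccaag
Slc49a4: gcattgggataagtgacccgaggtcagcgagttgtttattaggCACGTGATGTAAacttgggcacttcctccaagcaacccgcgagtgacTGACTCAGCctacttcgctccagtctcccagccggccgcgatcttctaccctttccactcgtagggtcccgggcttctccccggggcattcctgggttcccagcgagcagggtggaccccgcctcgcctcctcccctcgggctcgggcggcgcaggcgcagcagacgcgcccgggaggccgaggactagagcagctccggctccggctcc
The Slc46a3 window held 2 matches to the antioxidant core, with first bases at -108 and 20 counted from the start. The Slc49a4 window held 1 match to each of the 3 motifs, and its E-box and amino acid response element overlapped. Among all 32851 RefSeq windows of this kind, the antioxidant core was found in 12.4%, the amino acid response element in 3.97% and the E-box in 7.15%. Among the 180 windows of the 130 members with a sequence, the shares were 22.2% for the antioxidant core, 3.89% for the amino acid response element and 14.4% for the E-box. The sets are unlike, since the 32851 windows cover 27025 genes, more than the 10229 tested. Windows of the same gene can overlap, and no share over tested genes alone was computed. A match describes letters only and says nothing of binding.

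Also searched, on both strands, were an interferon-stimulated response element and an NF-kB type element. Each stood in 3 of the 180 member windows, or 1.67%, beside 3.44% and 0.411% of all windows. The NF-kB type matches were in windows of Slc6a12 and Slc6a13, which were not called, and of Slc37a4, which was lower.

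Both members of the copper family were higher. Slc31a2 (ENSMUSG00000066152, chr4:62262562-62298411, + strand), which regulates copper release from endosomes and lysosomes, was measured at 27.4, 26.1 and 26.4 FPKM in the nanoparticle libraries, against 7.30, 8.12 and 8.03 FPKM in the PBS libraries. Slc31a1 (ENSMUSG00000066150, chr4:62360727-62391769, + strand), the high-affinity importer of copper, was measured at 44.2, 46.1 and 47.8 FPKM in the nanoparticle libraries, against 18.8, 21.8 and 20.7 FPKM in the PBS libraries. No library of either group crossed into the other, with ratios of means of 3.41 for Slc31a2 (log2 fold change 1.65 ± 0.06 (SE), adjusted p = 1.3e-08) and 2.25 for Slc31a1 (log2 fold change 1.13 ± 0.07 (SE), adjusted p = 2.0e-07). The pair lies on the same strand of chromosome 4 with 62315 bases between the genes.

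Their promoters are printed as those of neighbours of a family that moved the same way, on the plus strand of GRCm38.p6 in the same RefSeq windows, at chr4:62286179-62286478 and chr4:62360451-62360750, with capitals marking the same motifs.
Slc31a2: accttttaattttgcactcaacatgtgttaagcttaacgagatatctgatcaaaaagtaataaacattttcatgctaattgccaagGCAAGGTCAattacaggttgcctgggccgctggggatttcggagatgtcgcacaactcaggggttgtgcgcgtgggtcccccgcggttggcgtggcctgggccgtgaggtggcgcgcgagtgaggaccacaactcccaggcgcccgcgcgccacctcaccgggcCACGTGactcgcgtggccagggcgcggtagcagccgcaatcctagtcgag
Slc31a1: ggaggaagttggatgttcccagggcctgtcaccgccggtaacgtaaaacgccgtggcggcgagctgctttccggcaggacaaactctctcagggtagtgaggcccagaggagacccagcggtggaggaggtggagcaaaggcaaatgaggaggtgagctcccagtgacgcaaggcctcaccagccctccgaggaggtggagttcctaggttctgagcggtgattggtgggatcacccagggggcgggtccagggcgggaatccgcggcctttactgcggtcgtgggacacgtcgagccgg
The Slc31a2 window held 1 match to the antioxidant core, first base at -164, and 1 E-box, first base at 1. The Slc31a1 window held none of the 5 motifs. The RefSeq start of Slc31a2 lies inside the gene as GENCODE draws it, which begins farther upstream.

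The other metal carriers moved in both directions, with a summed level for all 21 of 479 ± 6.60 FPKM in nanoparticle and 403 ± 3.36 FPKM in PBS libraries (SD, n = 3 each). Slc39a10 (ENSMUSG00000025986, chr1:46807544-46892852, - strand), a zinc importer of the plasma membrane, had the largest fall of all members on the log2 scale. It was measured at 11.4, 11.2 and 14.9 FPKM in the nanoparticle libraries, against 41.9, 42.8 and 47.0 FPKM in the PBS libraries. Its highest nanoparticle value lay well under its lowest PBS value, and the PBS mean was 3.51 times the nanoparticle mean (log2 fold change -1.74 ± 0.10 (SE), adjusted p = 1.9e-07). Slc39a11, a zinc carrier of the Golgi apparatus and other membranes, was measured at 8.62, 8.34 and 7.89 FPKM in the nanoparticle libraries, against 20.4, 19.6 and 21.3 FPKM in the PBS libraries (log2 fold change -1.21 ± 0.07 (SE), adjusted p = 1.2e-07). Slc41a3, of a family of magnesium carriers, was measured at 0.816, 0.544 and 0.755 FPKM in the nanoparticle libraries, against 2.93, 2.66 and 3.34 FPKM in the PBS libraries (log2 fold change -1.22 ± 0.10 (SE), adjusted p = 2.2e-06). Neither showed overlap between the groups, and Slc41a3 passed the limit on levels through its PBS values.

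Zinc carriers of the endoplasmic reticulum and the cell surface included members that were higher. Slc39a7, which releases zinc from the endoplasmic reticulum, averaged 113 ± 10.5 FPKM in nanoparticle and 79.4 ± 2.96 FPKM in PBS libraries (log2 fold change 0.50, adjusted p = 1.1e-04), and Slc39a1, a zinc importer, averaged 76.4 ± 5.47 FPKM in nanoparticle and 50.4 ± 2.57 FPKM in PBS libraries (0.59, adjusted p = 2.2e-05). Slc39a14, an importer of zinc, manganese and iron, averaged 12.5 ± 0.484 FPKM in nanoparticle and 16.1 ± 0.404 FPKM in PBS libraries (-0.33, adjusted p = 6.9e-04), the opposite direction. The zinc exporter Slc30a1 averaged 2.62 ± 0.202 FPKM in nanoparticle and 1.85 ± 0.0994 FPKM in PBS libraries (0.34, adjusted p = 0.0034). Slc30a6, which loads zinc into the Golgi apparatus, was the 1 metal carrier not called, at 8.73 ± 1.13 FPKM in nanoparticle and 10.01 ± 0.184 FPKM in PBS libraries, and was called lower under median-ratio and upper quartile scaling, at adjusted p of 0.030 and 0.012.

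**Figure D3:**
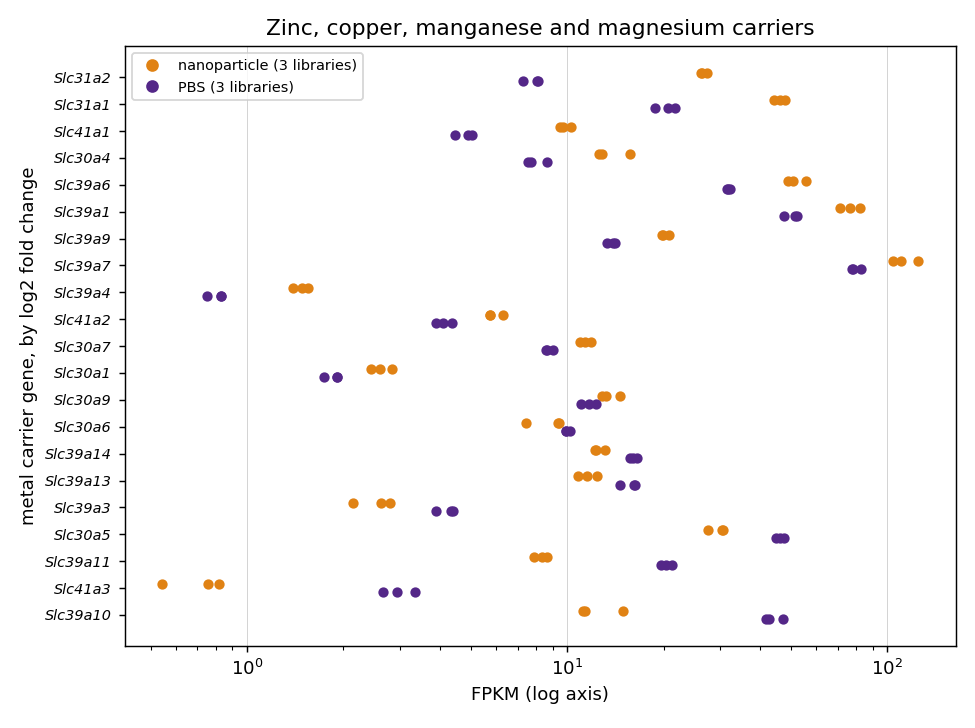
Points are FPKM of the metal carriers in each library on a log axis, with the 3 nanoparticle and the 3 PBS libraries in their own colours and genes ordered by log2 fold change. Slc31a2 is at the higher end, with nanoparticle values of 26.1 to 27.4 FPKM against 7.30 to 8.12 FPKM in PBS, and Slc39a10 at the lower end, with 11.2 to 14.9 FPKM against 41.9 to 47.0 FPKM.

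Carriers of monoamines and organic cations were higher, all 3 of them. Slc18a1 (ENSMUSG00000036330, chr8:69037711-69089235, - strand), which loads monoamines into secretory vesicles, was measured at 6.57, 6.44 and 7.10 FPKM in the nanoparticle libraries, against 0.0439, 0.132 and 0.0723 FPKM in the PBS libraries. It was near 0 in every PBS library and above 6 FPKM in every nanoparticle library (log2 fold change 2.83 ± 0.08 (SE), adjusted p = 1.9e-09), and it passed the limit on levels only through its nanoparticle values. Slc6a4, the serotonin transporter, was measured at 7.88, 8.31 and 7.91 FPKM in the nanoparticle libraries, against 2.15, 1.78 and 1.85 FPKM in the PBS libraries. Its lowest nanoparticle value was far above its highest PBS value, with a ratio of means of 4.17 (log2 fold change 1.63 ± 0.08 (SE), adjusted p = 5.4e-08). Slc22a5, a carnitine importer, averaged 3.86 ± 0.194 FPKM in nanoparticle and 2.52 ± 0.0768 FPKM in PBS libraries (log2 fold change 0.47, adjusted p = 2.8e-04). Slc22a4, of the same family, was under the limit, at 0.151 ± 0.0472 FPKM in nanoparticle and 0.196 ± 0.0323 FPKM in PBS libraries.

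Among carriers of small inorganic ions, Slc4a11 (ENSMUSG00000074796, chr2:130684113-130697519, - strand), known as a proton and water carrier of the corneal endothelium, was measured at 5.23, 5.35 and 4.76 FPKM in the nanoparticle libraries, against 0.116, 0.0654 and 0.0606 FPKM in the PBS libraries. Like Slc18a1, it was near 0 in every PBS library (log2 fold change 2.50 ± 0.08 (SE), adjusted p = 4.4e-09), and it too was tested only because of its nanoparticle values. The anion exchanger Slc4a2 averaged 35.8 ± 2.64 FPKM in nanoparticle and 14.2 ± 0.641 FPKM in PBS libraries (log2 fold change 1.27, adjusted p = 1.2e-07). Its exons overlap the opposite-strand gene Fastk, which had a mean of 31.4 FPKM and a log2 fold change of -0.34.

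Other members of the ion class moved the same way or the opposite way. Slc26a11, a sulfate and chloride carrier of lysosomes, averaged 3.66 ± 0.120 FPKM in nanoparticle and 1.06 ± 0.213 FPKM in PBS libraries (1.18, adjusted p = 1.9e-06), and Slc9a4, a sodium and proton exchanger, averaged 13.6 ± 0.713 FPKM in nanoparticle and 5.91 ± 0.381 FPKM in PBS libraries (1.08, adjusted p = 5.8e-07). The potassium and chloride cotransporter Slc12a7 was lower at 6.59 ± 0.701 FPKM in nanoparticle and 9.44 ± 0.512 FPKM in PBS libraries (-0.46, adjusted p = 7.0e-04).

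**Figure D4:**
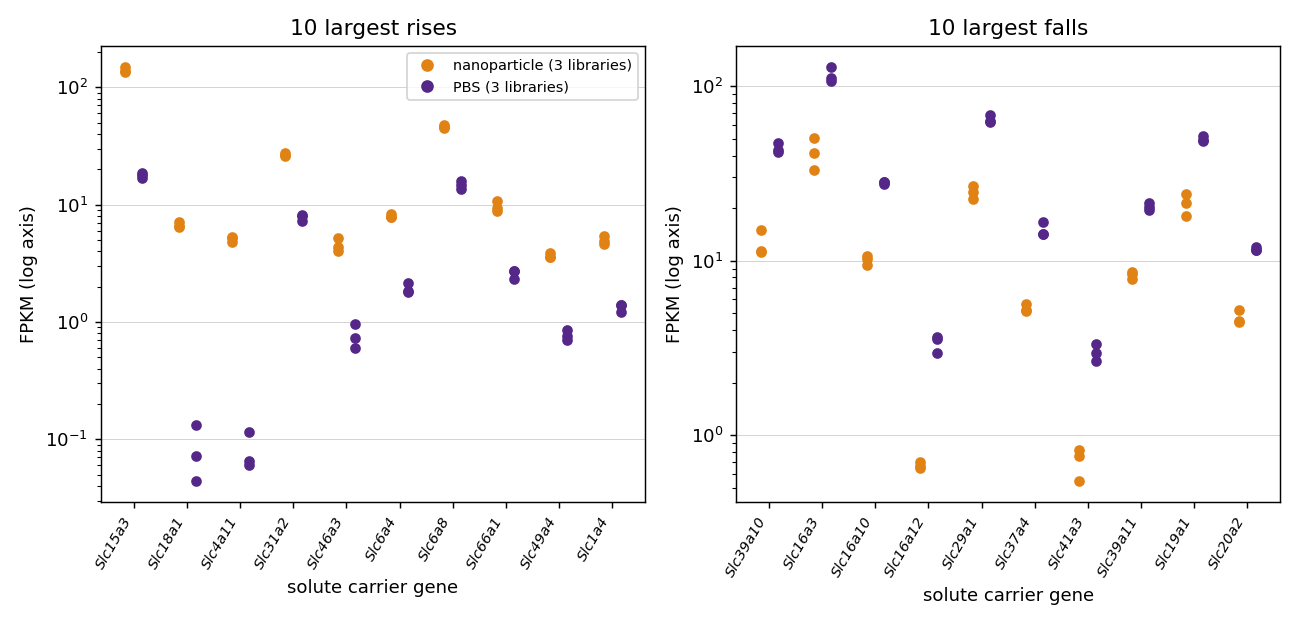
FPKM of the 10 carriers with the largest change upward and the 10 with the largest change downward is plotted per library on a log axis, with nanoparticle and PBS libraries in their own colours. For Slc15a3 the nanoparticle points lie at 134 to 149.7 FPKM and the PBS points at 17.0 to 18.5 FPKM, and for each gene shown the groups are separate.

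The monocarboxylate class was the Slc16 family, whose members were lower apart from Slc16a1. Slc16a10 and Slc16a12 are known for other substrates, given below, so the class is wider than carriers of lactate and pyruvate. Slc16a3 (ENSMUSG00000025161, chr11:120948480-120960868, + strand), which exports lactate from glycolytic cells, was measured at 50.2, 32.8 and 41.2 FPKM in the nanoparticle libraries, against 129, 111 and 107 FPKM in the PBS libraries. Its highest nanoparticle value stayed under its lowest PBS value, and the PBS mean was 2.79 times the nanoparticle mean (log2 fold change -1.48 ± 0.13 (SE), adjusted p = 4.2e-06). Slc16a1, which carries lactate and pyruvate in either direction, was measured at 120.0, 129.97 and 136 FPKM in the nanoparticle libraries, against 106, 111 and 112 FPKM in the PBS libraries. The groups did not overlap, but the rise was small (log2 fold change 0.23 ± 0.06 (SE), adjusted p = 0.0058) and was no longer called with upper quartile scaling, at an adjusted p of 0.13. Bsg, the chaperone both proteins need at the surface, averaged 461 ± 37.9 FPKM in nanoparticle and 311 ± 14.97 FPKM in PBS libraries (log2 fold change 0.57, adjusted p = 4.4e-05).

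Slc16a10, a carrier of aromatic amino acids, was measured at 10.6, 10.2 and 9.47 FPKM in the nanoparticle libraries, against 28.2, 28.3 and 27.5 FPKM in the PBS libraries (log2 fold change -1.39 ± 0.06 (SE), adjusted p = 3.1e-08). Slc16a12, which is known to carry creatine, was measured at 0.665, 0.702 and 0.651 FPKM in the nanoparticle libraries, against 2.97, 3.56 and 3.62 FPKM in the PBS libraries (log2 fold change -1.39 ± 0.09 (SE), adjusted p = 3.7e-07). Neither showed any overlap. Slc16a7, a carrier with high affinity for pyruvate, averaged 0.612 ± 0.192 FPKM in nanoparticle and 2.24 ± 0.259 FPKM in PBS libraries (log2 fold change -1.01, adjusted p = 1.7e-05). The class as a whole summed to 210 ± 7.19 FPKM in nanoparticle libraries and 302 ± 10.2 FPKM in PBS libraries (SD, n = 3 each).

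Slc16a12 and Slc16a7 passed the limit on levels through their PBS values. The Slc16a12 window, chr19:34747279-34747578 on the minus strand, is shown with the same marks. It was picked from the genes that fell because it held motifs.
Slc16a12: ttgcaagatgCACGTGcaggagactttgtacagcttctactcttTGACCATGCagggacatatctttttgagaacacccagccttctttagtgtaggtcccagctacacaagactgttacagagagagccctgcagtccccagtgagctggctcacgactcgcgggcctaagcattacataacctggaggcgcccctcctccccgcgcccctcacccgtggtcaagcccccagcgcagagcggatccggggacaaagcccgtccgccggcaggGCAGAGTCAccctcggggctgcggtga
The Slc16a12 window held 2 matches to the antioxidant core, first bases at -206 and 24, and 1 E-box, first base at -240. These motifs thus stood in windows of genes that were higher and of a gene that was lower. Of the 10 members with the largest rises, 6 had a sequence, and 4 of these held a searched motif. Of the 10 with the largest falls, 9 had a sequence, and 6 of these held a searched motif.

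Amino acid carriers split. Slc6a8, which imports creatine and is classed here by its family, was measured at 48.0, 45.6 and 45.3 FPKM in the nanoparticle libraries, against 15.8, 14.6 and 13.6 FPKM in the PBS libraries, with a ratio of means of 3.15 (log2 fold change 1.59 ± 0.07 (SE), adjusted p = 1.9e-08). Slc1a4, an exchanger of alanine, serine and cysteine, was measured at 4.86, 5.41 and 4.60 FPKM in the nanoparticle libraries, against 1.21, 1.39 and 1.41 FPKM in the PBS libraries (log2 fold change 1.35 ± 0.09 (SE), adjusted p = 3.4e-07). Slc6a9, which imports glycine, averaged 6.56 ± 0.614 FPKM in nanoparticle and 2.60 ± 0.175 FPKM in PBS libraries (log2 fold change 1.07, adjusted p = 2.0e-06). In all of these the nanoparticle libraries lay above the PBS libraries.

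Slc1a4 is a known target of the amino acid response, and its window, chr11:20332664-20332963 on the minus strand, is given because of the motif it held.
Slc1a4: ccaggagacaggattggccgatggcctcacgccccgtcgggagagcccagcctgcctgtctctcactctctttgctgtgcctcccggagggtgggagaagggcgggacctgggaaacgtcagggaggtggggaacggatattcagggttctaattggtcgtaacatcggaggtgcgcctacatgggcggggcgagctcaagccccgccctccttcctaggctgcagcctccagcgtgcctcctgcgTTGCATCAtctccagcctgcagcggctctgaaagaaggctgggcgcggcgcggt
The capitals mark 1 match to the amino acid response element, read on the opposite strand, with its first base at -4. The element stood in windows of 6 members. Of these, Slc1a4, Slc49a4, Slc7a7 and Slc26a10 were higher and Slc50a1 was lower. Slc7a11, with matches at -66 and -47, was not called.

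Of 10 carriers listed for that response, 9 were tested, of which 3 were higher, 3 lower and 3 not called. The median was 0.09, beside 0.08 over all genes. Those called made up 66.7%, beside 77.2% of all genes. Those higher and lower were 33.3% each, beside 42.7% and 34.5% of all genes. Slc3a2 was higher at 164, 144 and 137 FPKM in the nanoparticle libraries, against 106, 101 and 101 FPKM in the PBS libraries (log2 fold change 0.52 ± 0.07 (SE), adjusted p = 7.0e-05). Slc7a5, the large neutral amino acid carrier that pairs with it, was lower at 44.1 ± 2.56 FPKM in nanoparticle and 63.1 ± 2.17 FPKM in PBS libraries (-0.51, adjusted p = 2.8e-05). Slc7a1, an importer of arginine and lysine, was lower at 17.0 ± 0.682 FPKM in nanoparticle and 24.3 ± 0.858 FPKM in PBS libraries (-0.49, adjusted p = 4.2e-05), and so was Slc1a5 at 109.7 ± 7.39 FPKM in nanoparticle and 153 ± 2.00 FPKM in PBS libraries (-0.48, adjusted p = 4.5e-05).

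The cystine importer Slc7a11 averaged 2.88 ± 0.0155 FPKM in nanoparticle and 2.64 ± 0.300 FPKM in PBS libraries (0.094, adjusted p = 0.33), and Slc38a2, a carrier of small neutral amino acids that cells raise on starvation, averaged 64.7 ± 4.92 FPKM in nanoparticle and 64.8 ± 4.51 FPKM in PBS libraries (-0.0015, adjusted p = 0.99). Neither passed the threshold, and for both the groups overlapped. Slc7a2, the arginine importer tied to nitric oxide production in activated macrophages, was listed at 0.0199 FPKM in 1 nanoparticle library and at 0 elsewhere. The largest fall of the class was that of Slc6a6, which imports taurine, at 33.6, 32.2 and 36.2 FPKM in the nanoparticle libraries, against 71.5, 66.5 and 73.8 FPKM in the PBS libraries (log2 fold change -1.03 ± 0.06 (SE), adjusted p = 2.9e-07). The class summed to 776 ± 22.8 FPKM in nanoparticle and 778 ± 8.92 FPKM in PBS libraries (SD, n = 3 each), a difference within the spread.

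Sugar carriers also moved apart from each other. Slc2a6, a lysosomal hexose carrier that macrophages express, was measured at 82.9, 76.5 and 73.4 FPKM in the nanoparticle libraries, against 37.1, 36.7 and 34.4 FPKM in the PBS libraries, without overlap and with a ratio of means of 2.15 (log2 fold change 1.08 ± 0.06 (SE), adjusted p = 1.7e-07). Slc2a1, the common glucose importer, was measured at 64.9, 58.0 and 54.2 FPKM in the nanoparticle libraries, against 48.5, 49.1 and 47.1 FPKM in the PBS libraries (log2 fold change 0.28 ± 0.07 (SE), adjusted p = 0.0039). Slc2a4, the insulin-responsive glucose importer, was measured at 2.03, 2.27 and 1.95 FPKM in the nanoparticle libraries, against 0.164, 0.211 and 0.272 FPKM in the PBS libraries (log2 fold change 1.34 ± 0.09 (SE), adjusted p = 4.2e-07). It entered through its nanoparticle values.

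The high-affinity glucose importer Slc2a3 averaged 13.6 ± 0.720 FPKM in nanoparticle and 15.9 ± 0.339 FPKM in PBS libraries (-0.21, adjusted p = 0.012), a call lost without nanoparticle replicate 2, at an adjusted p of 0.064. Slc2a8, an intracellular hexose carrier, averaged 1.98 ± 0.332 FPKM in nanoparticle and 4.74 ± 0.141 FPKM in PBS libraries (-0.95, adjusted p = 9.0e-06). Slc37a4, which brings glucose 6-phosphate into the endoplasmic reticulum, was measured at 5.21, 5.16 and 5.61 FPKM in the nanoparticle libraries, against 14.3, 14.2 and 16.6 FPKM in the PBS libraries. Its PBS mean was 2.83 times its nanoparticle mean, and the groups were separate (log2 fold change -1.34 ± 0.08 (SE), adjusted p = 2.2e-07).

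Mitochondrial carriers of the Slc25 family were the most numerous class, and their summed level was 1678 ± 52.2 FPKM in nanoparticle and 1868 ± 46.7 FPKM in PBS libraries (SD, n = 3 each). Slc25a5, the most abundant carrier, was measured at 505, 518 and 482 FPKM in the nanoparticle libraries, against 691, 704 and 667 FPKM in the PBS libraries. All nanoparticle values lay under all PBS values (log2 fold change -0.45 ± 0.06 (SE), adjusted p = 3.7e-05). Its paralog Slc25a4, the ADP/ATP carrier of heart and muscle, averaged 123 ± 5.25 FPKM in nanoparticle and 123 ± 4.09 FPKM in PBS libraries and was not called. No source used here says how reads shared between paralogs were counted, so both values are uncertain to that extent.

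The carriers of aspartate and glutamate that serve the malate-aspartate shuttle were lower, with Slc25a13 at 16.8 ± 0.421 FPKM in nanoparticle and 31.5 ± 0.944 FPKM in PBS libraries (-0.87, adjusted p = 4.0e-07) and Slc25a12 at 13.6 ± 0.462 FPKM in nanoparticle and 23.9 ± 0.520 FPKM in PBS libraries (-0.77, adjusted p = 1.2e-06). The ornithine carrier of the urea cycle, Slc25a15, averaged 3.18 ± 0.201 FPKM in nanoparticle and 6.59 ± 0.0966 FPKM in PBS libraries (-0.86, adjusted p = 2.9e-06). The phosphate carrier Slc25a3 averaged 342 ± 8.45 FPKM in nanoparticle and 364 ± 13.5 FPKM in PBS libraries (-0.088, adjusted p = 0.16) and was called with the replicate number as a block, at an adjusted p of 0.046, and under median-ratio and upper quartile scaling, at 0.032 and 0.0038. The citrate carrier Slc25a1 averaged 49.9 ± 3.92 FPKM in nanoparticle and 53.8 ± 2.58 FPKM in PBS libraries (-0.11, adjusted p = 0.17), and the oxoglutarate carrier Slc25a11 averaged 70.8 ± 7.36 FPKM in nanoparticle and 74.5 ± 3.27 FPKM in PBS libraries (-0.077, adjusted p = 0.38). Neither passed the threshold, though both did with upper quartile scaling, at adjusted p of 0.010 for Slc25a1 and 0.034 for Slc25a11. Exons of Slc25a11 overlap the opposite-strand gene Rnf167, which had a mean of 15.2 FPKM and a log2 fold change of 0.57.

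Others of the family were higher. Slc25a33, a pyrimidine nucleotide carrier, was measured at 24.2, 23.6 and 21.3 FPKM in the nanoparticle libraries, against 9.01, 9.18 and 8.98 FPKM in the PBS libraries (log2 fold change 1.26 ± 0.07 (SE), adjusted p = 1.1e-07). Slc25a44, which imports branched-chain amino acids into mitochondria, was measured at 46.6, 42.0 and 44.5 FPKM in the nanoparticle libraries, against 18.3, 18.9 and 18.7 FPKM in the PBS libraries (log2 fold change 1.21 ± 0.06 (SE), adjusted p = 5.4e-08). For both, nanoparticle libraries were above 20 FPKM and PBS libraries under 20 FPKM, with no overlap. Slc25a20, which exchanges carnitine and acylcarnitine for fatty acid oxidation, averaged 33.9 ± 1.64 FPKM in nanoparticle and 14.9 ± 0.275 FPKM in PBS libraries (1.13, adjusted p = 9.0e-08), and Slc25a42, a carrier of coenzyme A, averaged 3.26 ± 0.210 FPKM in nanoparticle and 1.06 ± 0.184 FPKM in PBS libraries (1.05, adjusted p = 3.6e-06). Slc25a37, mitoferrin 1, which brings iron into mitochondria, averaged 19.4 ± 0.839 FPKM in nanoparticle and 14.7 ± 0.861 FPKM in PBS libraries (0.38, adjusted p = 5.0e-04).

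**Figure D5:**
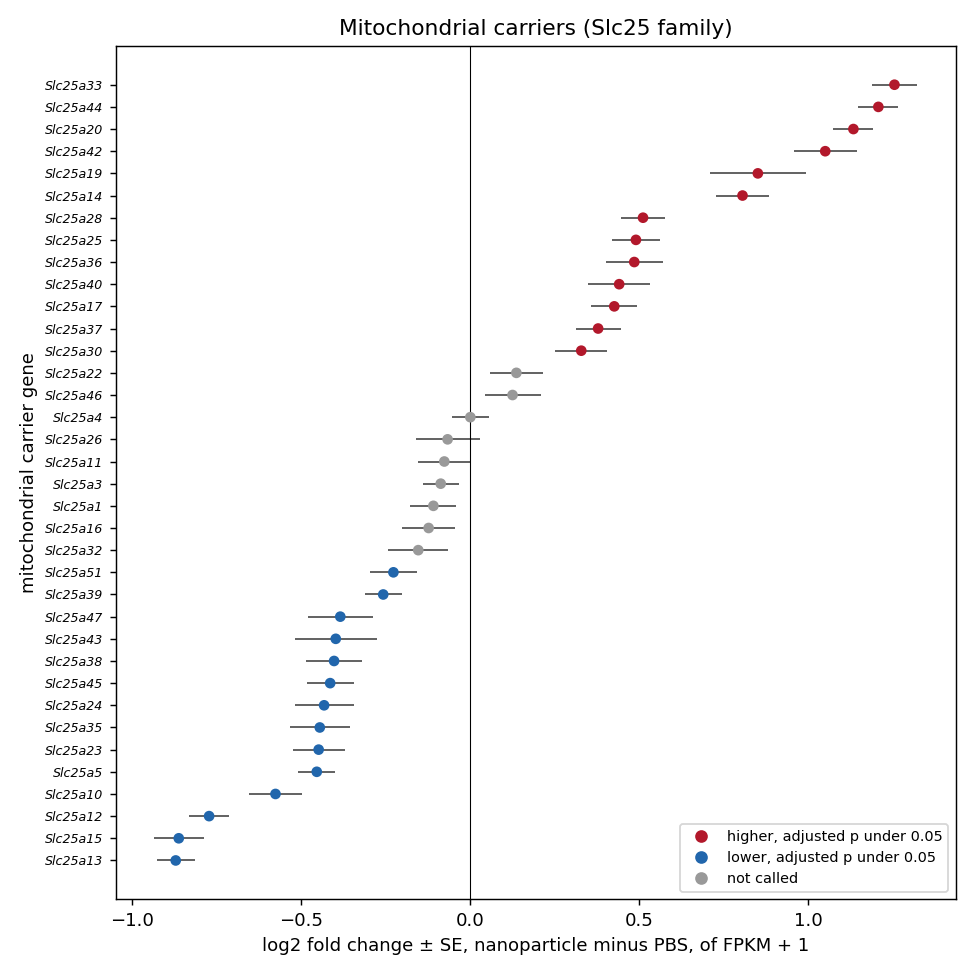
Log2 fold change of each of the 36 mitochondrial carriers, nanoparticle minus PBS on log2(FPKM + 1), with bars of 1 SE, ordered by size and coloured by limma call. The order runs from Slc25a33 at 1.26 to Slc25a13 at -0.87, with 13 higher, 14 lower and 9 not called.

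Nucleoside carriers of the equilibrative family were lower or not called. Slc29a1, the main equilibrative nucleoside carrier of the plasma membrane, was measured at 26.8, 24.6 and 22.5 FPKM in the nanoparticle libraries, against 68.0, 62.9 and 61.9 FPKM in the PBS libraries. Its groups were far apart, and the PBS mean was 2.61 times the nanoparticle mean (log2 fold change -1.35 ± 0.07 (SE), adjusted p = 1.0e-07). Slc29a2, a related carrier, averaged 2.02 ± 0.340 FPKM in nanoparticle and 5.18 ± 0.163 FPKM in PBS libraries (-1.04, adjusted p = 4.3e-06). Slc29a3, a nucleoside carrier of lysosomes whose loss in mice raises signalling through Tlr7, averaged 2.27 ± 0.0651 FPKM in nanoparticle and 2.71 ± 0.305 FPKM in PBS libraries (-0.18, adjusted p = 0.080) and was called under either other scaling, at adjusted p of 0.024 and 0.019. The sodium-coupled carrier Slc28a2 was higher at 2.32 ± 0.268 FPKM in nanoparticle and 0.542 ± 0.1004 FPKM in PBS libraries (1.10, adjusted p = 3.3e-06), as was Slc43a3, a carrier of purine nucleobases, at 34.9 ± 0.847 FPKM in nanoparticle and 20.9 ± 0.823 FPKM in PBS libraries (0.72, adjusted p = 1.7e-06). Slc28a2 passed the limit through its nanoparticle values.

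Of the carriers of vitamins, choline, heme and acetyl-CoA, 6 of 12 were lower and 3 higher, and the class summed to 156 ± 1.66 FPKM in nanoparticle and 229 ± 2.71 FPKM in PBS libraries (SD, n = 3 each). Slc19a1, the reduced folate carrier, which in human cells also imports cyclic dinucleotides that activate STING, was measured at 24.1, 21.4 and 18.1 FPKM in the nanoparticle libraries, against 51.7, 48.7 and 48.8 FPKM in the PBS libraries. No nanoparticle value reached any PBS value, and the PBS mean was 2.35 times the nanoparticle mean (log2 fold change -1.20 ± 0.09 (SE), adjusted p = 1.3e-06). Slc44a2, of the choline carrier family, averaged 33.0 ± 0.738 FPKM in nanoparticle and 61.3 ± 2.04 FPKM in PBS libraries (-0.87, adjusted p = 2.5e-07), and its relative Slc44a1 averaged 15.8 ± 1.06 FPKM in nanoparticle and 29.0 ± 1.78 FPKM in PBS libraries (-0.84, adjusted p = 2.9e-06). Slc46a2, a carrier of bacterial muropeptides in epidermal cells of mice, was at 0 in all libraries. Slc20a2, a phosphate importer, was measured at 4.49, 4.43 and 5.24 FPKM in the nanoparticle libraries, against 11.4, 11.5 and 11.9 FPKM in the PBS libraries (log2 fold change -1.14 ± 0.08 (SE), adjusted p = 5.4e-07), with no overlap, while its relative Slc20a1 averaged 29.6 ± 1.63 FPKM in nanoparticle and 30.0 ± 1.09 FPKM in PBS libraries (-0.018, adjusted p = 0.79).

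Nucleotide sugar carriers feed glycosylation in the Golgi apparatus and endoplasmic reticulum. Slc35a2, which carries UDP-galactose, was measured at 29.4, 30.0 and 21.7 FPKM in the nanoparticle libraries, against 11.5, 10.4 and 12.7 FPKM in the PBS libraries (log2 fold change 1.15 ± 0.12 (SE), adjusted p = 1.2e-05). Slc35f6, a lysosomal member of this family, averaged 29.2 ± 0.704 FPKM in nanoparticle and 11.5 ± 0.572 FPKM in PBS libraries (1.27, adjusted p = 5.0e-08). Slc35c1, the GDP-fucose carrier, averaged 14.8 ± 0.712 FPKM in nanoparticle and 22.5 ± 1.26 FPKM in PBS libraries (-0.57, adjusted p = 2.9e-05), and Slc35a4 averaged 57.4 ± 1.34 FPKM in nanoparticle and 85.7 ± 3.21 FPKM in PBS libraries (-0.57, adjusted p = 5.0e-06). Exons of Slc35a4 overlap the opposite-strand gene Apbb3, which had a mean of 10.3 FPKM and a log2 fold change of 1.05. Thus the family held members on both sides, without overlap between groups for any of these 4 carriers.

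Fatty acid carriers were represented by Slc27a4, a fatty acid transport protein, at 14.9 ± 1.15 FPKM in nanoparticle and 7.31 ± 0.223 FPKM in PBS libraries (0.93, adjusted p = 1.6e-06), and Slc27a1, another, at 121 ± 7.69 FPKM in nanoparticle and 78.4 ± 3.06 FPKM in PBS libraries (0.62, adjusted p = 7.4e-06). Slc10a7, a relative of the bile acid carriers that acts on calcium handling in the Golgi apparatus, was lower at 4.65 ± 0.316 FPKM in nanoparticle and 9.36 ± 0.592 FPKM in PBS libraries (-0.88, adjusted p = 4.1e-06).

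The members placed in no substrate class were Slc45a3 at 3.96 ± 0.240 FPKM in nanoparticle and 1.12 ± 0.0891 FPKM in PBS libraries (1.23, adjusted p = 4.9e-07), Slc66a2 at 24.2 ± 0.830 FPKM in nanoparticle and 13.0 ± 0.898 FPKM in PBS libraries (0.85, adjusted p = 1.7e-06), Slc66a3 at 8.91 ± 0.339 FPKM in nanoparticle and 14.9 ± 0.485 FPKM in PBS libraries (-0.68, adjusted p = 5.8e-06) and Slc45a4 at 7.47 ± 0.219 FPKM in nanoparticle and 8.92 ± 0.872 FPKM in PBS libraries (-0.22, adjusted p = 0.028). The last call was lost without nanoparticle replicate 2, PBS replicate 1 or PBS replicate 3, at adjusted p of 0.090, 0.080 and 0.12. Slc7a6os and Slc4a1ap match the symbol pattern but encode no carrier. They averaged 62.2 ± 1.504 FPKM in nanoparticle and 29.5 ± 1.67 FPKM in PBS libraries (1.05, adjusted p = 1.4e-07) for Slc7a6os, and 22.8 ± 2.04 FPKM in nanoparticle and 15.5 ± 0.400 FPKM in PBS libraries (0.53, adjusted p = 8.7e-05) for Slc4a1ap. Exons of Slc4a1ap overlap the opposite-strand gene Supt7l, which had a mean of 10.4 FPKM and a log2 fold change of 0.83.

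Among members within 100000 bases of each other there were 8 pairs. Besides the copper pair, Slc25a15 and Slc20a2 were both lower, as were Slc25a43 and Slc25a5. The call of Slc25a43 was lost without nanoparticle replicate 2 (adjusted p = 0.051 with limma) and without PBS replicate 2 (adjusted p = 0.055). The neighbours Slc35b2 and Slc29a1 differed, at log2 fold changes of 0.032 and -1.35, and so did Slc7a6 and Slc7a6os, at 0.094 and 1.05. For Slc6a13 and Slc6a12, neither was called.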

How the data were processed

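mRNA libraries from total RNA of the 6 samples were sequenced by the submitters following a BGI protocol. Per the submitters' processing notes, STAR and featureCounts were used (versions not given), and GRCm38 and mm10 are the builds named. The authors deposited FPKM, in a single table with a column for each library; the unit was inferred from the values, and no source used here says how it was computed. Depth is not given, and of low values 25.7% to 31.1% lay within 0.05 of whole fragments, so counts were not recovered and no interval or floor is given. Of 22614 rows, 22105 carried Ensembl gene identifiers and the other 509 (0.427% to 0.497% of a library) were left out. Of these, 498 carried MSTRG identifiers, of the type written by StringTie, a tool not among those named. The tool behind the values is therefore uncertain. Coordinates are from GENCODE M21 (GRCm38) for the 21995 genes found there, and promoters from RefSeq (GRCm38.p6).

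Samples were grouped by their titles, and columns matched by library name; PBS replicate 1 has an added suffix of unknown meaning. Genes averaging 1 FPKM or more were tested with limma 3.58.1 (R 4.3.3) on log2(FPKM + 1) with an intensity trend, treatment as the only term, two-sided, with Benjamini-Hochberg adjustment over all 10229 genes. Values are mean ± SD over n = 3 libraries, and ± beside a fold change is its SE. The fit was tested on simulated data. Python 3.11.15, pandas 2.3.3 and matplotlib 3.10.9 served for tables and plots.

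Members, lists, classes and alternatives were chosen with earlier results of these data known. Named carriers are the 10 with the largest change in each direction among called members without overlap, the 2 largest in each direction of each class, a fixed set of 30 and those at the limit; a few more, chosen after their values were seen, are named as examples of a class. A few that it selects are left unreported. Same-numbered libraries deviated together (correlations of 0.13, 0.11 and 0.35), each above the 0.1 taken to show pairing. Deviations cancel within a group, so these correlations are not independent and cannot decide whether libraries were paired. Nanoparticle replicate 1 correlated as well with PBS replicate 2 (0.13), and the labels do not say what a number marks. The reported p-values come from the fit without pairing, and the fit with the replicate number as a block is an alternative. Alternatives were pseudocounts of 0.1 and 10 FPKM, no limit or a limit of 5 FPKM, median-ratio and upper quartile scaling, no intensity trend, the replicate number as a block, and leaving out each library.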

Additional observations from a re-analysis of the deposited data

How the results depend on the processing

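Counts of members called stayed within 1.5 times of the 79 higher and 58 lower under every alternative run, and no called member changed sign. With the replicate number as a block, 83 were higher and 60 lower, with 6 calls added and none lost. Median-ratio scaling gave 73 higher and 65 lower, upper quartile scaling 72 and 68, no limit 77 and 55, a limit of 5 FPKM 59 and 48 of 136 members tested, and no intensity trend 80 and 58; both pseudocounts gave the same counts. Leaving out 1 library gave 75 to 78 higher and 53 to 58 lower, and over all genes 4115 to 4327 higher and 3250 to 3596 lower. With upper quartile scaling 47.3% of the calls over all genes were higher, against 55.3% as reported. Of the 37 members not called, 17 changed sign in 1 or more settings, Slc20a1 (0.027 without nanoparticle replicate 1) and Slc25a4 among them. Slc38a2 changed sign without nanoparticle replicate 1 (0.038), without nanoparticle replicate 2 (0.019) and without PBS replicate 3, and Slc25a11 without nanoparticle replicate 3; with 1 library left out Slc38a2 ranged over -0.062 to 0.052 and Slc25a11 over -0.14 to 0.0072 on the log2 scale, and the cause was not tested. Without the limit, Slc45a4 was no longer called (adjusted p = 0.051 with limma). Depth is unknown, so members near 1 FPKM have an error that cannot be stated.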

Other observations

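Carriers with other names and accessory subunits also changed in both directions. Of 46 listed, 45 were in the table and 33 were tested, with 16 higher, 13 lower and 4 not called and a median log2 fold change of 0.18, beside 0.08 over all genes. The shares higher and lower were 48.5% and 39.4%, close to the 42.7% and 34.5% of all genes. Ctns, the lysosomal exporter of cystine, averaged 32.2 ± 0.348 FPKM in nanoparticle and 7.62 ± 0.244 FPKM in PBS libraries (log2 fold change 1.95, adjusted p = 2.4e-09, by limma). Mfsd11, a carrier of the major facilitator superfamily, averaged 32.3 ± 1.25 FPKM in nanoparticle and 8.29 ± 0.860 FPKM in PBS libraries (1.85, adjusted p = 2.0e-08), and Glmp, a lysosomal membrane glycoprotein, averaged 114 ± 7.44 FPKM in nanoparticle and 40.6 ± 0.753 FPKM in PBS libraries (1.47, adjusted p = 1.7e-08). Ank, which takes part in the release of pyrophosphate and citrate, averaged 16.1 ± 0.780 FPKM in nanoparticle and 151 ± 0.214 FPKM in PBS libraries (-3.16, adjusted p = 8.0e-11). Slco4a1, an organic anion carrier, averaged 43.0 ± 1.21 FPKM in nanoparticle and 143 ± 6.48 FPKM in PBS libraries (-1.72, adjusted p = 3.5e-09). Mpc1 and Mpc2 form the mitochondrial pyruvate carrier, and they moved apart, with Mpc1 at 18.4 ± 0.956 FPKM in nanoparticle and 30.6 ± 1.48 FPKM in PBS libraries (-0.71, adjusted p = 4.4e-06) and Mpc2 at 103 ± 4.55 FPKM in nanoparticle and 52.0 ± 2.94 FPKM in PBS libraries (0.97, adjusted p = 2.9e-07).

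Of 50 ABC transporters, which pump substrates with ATP, 21 were tested, with 7 higher, 8 lower and 6 not called and a median of -0.03. The 33.3% higher and 38.1% lower stand beside 42.7% and 34.5% of all genes. Abcc5, an exporter of cyclic nucleotides, averaged 9.74 ± 0.254 FPKM in nanoparticle and 4.33 ± 0.410 FPKM in PBS libraries (1.01, adjusted p = 1.4e-06), Abca7, a lipid transporter, 12.6 ± 0.233 FPKM in nanoparticle and 6.45 ± 0.634 FPKM in PBS libraries (0.87, adjusted p = 4.2e-06), and Abcc10 1.75 ± 0.255 FPKM in nanoparticle and 0.743 ± 0.0985 FPKM in PBS libraries (0.66, adjusted p = 1.6e-04). Abcc10 passed the limit of 1 FPKM through its nanoparticle values. Abcb4, a phospholipid transporter, averaged 6.49 ± 0.458 FPKM in nanoparticle and 14.8 ± 0.946 FPKM in PBS libraries (-1.08, adjusted p = 8.1e-07), and Abca2 3.55 ± 0.148 FPKM in nanoparticle and 7.57 ± 0.336 FPKM in PBS libraries (-0.91, adjusted p = 1.8e-06). Abcb1b, a mouse multidrug exporter known to pump doxorubicin, averaged 28.5 ± 2.42 FPKM in nanoparticle and 29.0 ± 0.830 FPKM in PBS libraries (-0.026, adjusted p = 0.74) and was not called.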
